A study of Mus musculus with 3 samples.

Results

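The TRIM (tripartite motif) genes were examined in RNA of mouse macrophages, as the 68 protein-coding genes whose symbol is Trim followed by a number and at most 1 letter, out of 22028 annotated protein-coding genes and 55536 annotated genes in all. Membership rests on the symbol alone, and no measured value entered the choice. Total RNA depleted of ribosomal RNA was sequenced from the cytosolic fraction of bone-marrow-derived macrophages of the C57BL/6J strain, which are macrophages grown in culture from marrow. The cells had been given Lipid A, the lipid anchor of the bacterial cell wall component that Tlr4 recognises, at 100 ng/ml for 12 hours, were washed and left for 12 hours, and received Lipid A at 100 ng/ml again for the last 40 minutes. These cells form 1 group, with 3 libraries labelled as biological replicates. They carry the same donor label, so whether the cultures came from separate animals is not known, and the p-values measure the spread between these libraries, which may be technical. Unstimulated cells were not analysed here, so all values are levels and not responses to Lipid A.

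TRIM proteins carry an N-terminal RING domain, which recruits a ubiquitin-loaded E2 enzyme, then B-box and coiled-coil domains, and end in a C-terminal part that binds the target and defines the classes of the family. Most are ubiquitin ligases, while some members, among them Trim14 and Trim44, lack the RING domain. In macrophages the family is known for tagging or scaffolding proteins of the pathways that sense bacterial and viral products, and many members are induced by interferon.

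Expected counts on annotated genes ranged from 38197192 to 46327891 per library, and 3 counts, the upper limit that a count of 0 allows, came to 0.0648 to 0.0785 CPM (counts scaled to library depth), for counting error only. All 8 macrophage markers were present, from 40.6 TPM for Mertk to 3020 TPM for Lyz2. None of the markers of T cells, B cells, neutrophils, dendritic cells, mast cells, erythroid cells, fibroblasts or muscle reached 1 TPM in any library, and Fcer1a, Ly6g, Myog, Myh1 and Acta1 had 0 counts. TPM, a share of all transcripts in the library, divides by transcript length, so that levels can be compared between genes. The nuclear RNA Malat1 was at 1445, 485 and 1726 TPM in replicates 1, 2 and 3. In a culture, fewer cells that make a transcript and less of it per cell cannot be told apart.

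Levels in the family ran from Trim30a at 117 TPM in the mean down to genes with 0 counts. The detection level, at least 1 TPM in each of the 3 libraries, was reached by 31 of the 68 genes, beside 41.4% of all protein-coding genes. Of the other 37, Trim6 reached that level in 2 libraries, 25 had counts but stayed below 1 TPM in every library, and 11 had 0 counts in all 3. The median level over all 68 was 0.77 on the log2(TPM + 1) scale, against 0.23 for protein-coding genes. Over the detected genes the medians were 3.23 and 3.25, so that detected TRIM genes sat near the centre of the detected genes. The whole family summed to 710 TPM in replicate 1, 567 TPM in replicate 2 and 578 TPM in replicate 3, which was 0.208% ± 0.00547 (SD, n = 3) of the TPM of nuclear protein-coding genes. The 5 highest genes held 51.7% ± 1.71 of the family's TPM and the 14 highest 87.0% ± 0.687.

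A limma fit of log2(TPM + 1) in each library, less the library's median over 9106 detected nuclear protein-coding genes, placed 15 of the 31 detected TRIM genes above that median and 15 below it at a Benjamini-Hochberg adjusted p under 0.05. In the same fit 45.5% of all detected genes were above and 45.5% below, so the TRIM genes had a share of calls in each direction near that of all genes. Trim44 was the 1 gene called neither way. Such a call says where a gene ranks in these cells and does not compare conditions.

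**Figure D1:**
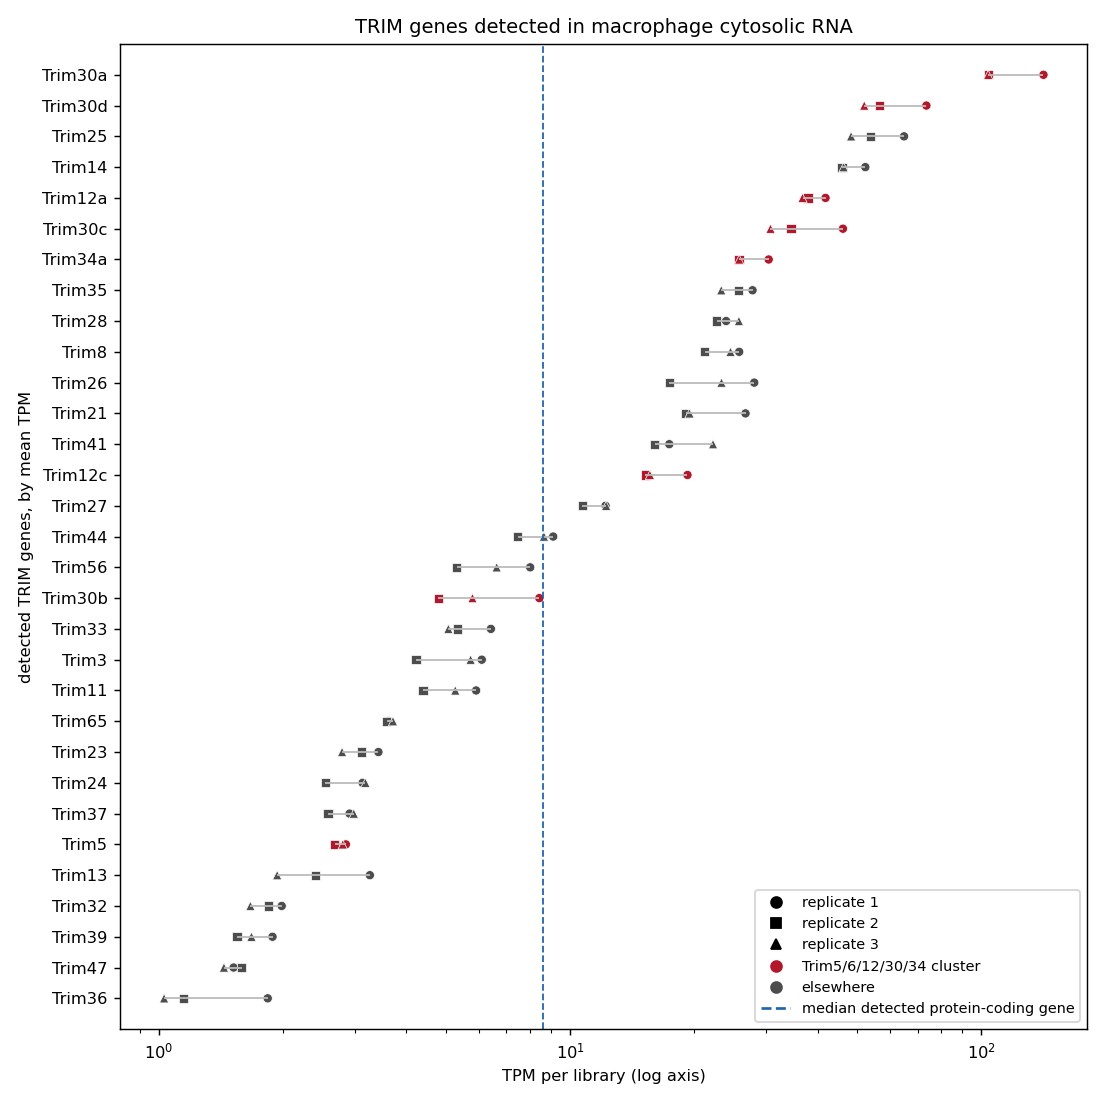
Each row is 1 of the 31 detected TRIM genes, ordered by mean level, with the TPM of replicate 1 (circle), replicate 2 (square) and replicate 3 (triangle) on a logarithmic axis; the grey line spans the 3 values, red marks the Trim5/6/12/30/34 cluster and the dashed line is the median detected nuclear protein-coding gene at 8.59 TPM. Trim30a stands above every other gene in all 3 libraries, and the points of neighbouring rows mostly overlap.

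The highest levels came from 1 stretch of chromosome 7, where 10 TRIM genes lie within 289 kb (mm10, chr7:104218793-104507849). This cluster holds the mouse relatives of the antiviral restriction factor TRIM5 together with the Trim30 and Trim34 genes, and it has expanded by duplication in rodents. Of its 10 genes 8 were detected, against 23 of the 58 elsewhere and 41.4% of all protein-coding genes. The cluster gave 51.6%, 49.8% and 47.6% of the family's TPM in replicates 1, 2 and 3, a mean of 49.7% ± 2.00. Counted by reads, without division by length, its share was 46.4% ± 1.84. Between and within its genes the span held 8 further annotated genes, all pseudogenes, antisense RNAs or small nuclear RNAs, of which Gm16464 was the highest at 4.75 TPM.

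Trim30a, known as a brake on Toll-like receptor signalling that lowers the adaptor proteins Tab2 and Tab3, was the highest gene of the family (chr7:104409025-104465193, minus strand). It was at 142 TPM in replicate 1 and 104 TPM in each of replicates 2 and 3. Its lowest library exceeded the highest library of every other TRIM gene, and it alone held 18.8% ± 1.04 of the family's TPM. It stood 3.60 ± 0.0771 (SE) log2 units above the median gene, with an adjusted p of 4.5e-09 in limma. Trim30d, the next gene upstream, was at 73.5, 56.6 and 51.9 TPM, so that Trim30a was higher by 0.93 ± 0.0598 (SD) log2 units, in 3 of 3 libraries and without overlap. Trim30c followed at 46.1, 34.5 and 30.7 TPM, below Trim30d in all 3 libraries. Trim30b was at 8.42, 4.78 and 5.79 TPM, 4.02 ± 0.146 log2 units under Trim30a.

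The Trim12 and Trim5 genes are the closest mouse relatives of the primate TRIM5 gene. Trim12a was at 41.8, 37.9 and 36.8 TPM, and Trim12c, reported to act with Traf6 in interferon and NF-kB signalling, at 19.3, 15.2 and 15.6 TPM. Their ranges did not overlap, and Trim12a was higher by 1.17 ± 0.0926 log2 units. Trim5 itself was low and even, at 2.85, 2.68 and 2.80 TPM. Its log2 SD of 0.0335 was the second smallest of the 31 genes, after Trim65.

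The Trim34 copies differed most within the cluster. Trim34a was at 30.4, 25.7 and 25.8 TPM, while Trim34b was at 0.10, 0.16 and 0.13 TPM from 41.4 expected counts in all. The difference was 4.64 ± 0.168 log2 units, and no library overlapped. Trim6, the outermost gene of the cluster, was at 1.74, 0.69 and 1.34 TPM and thus crossed the detection level in replicates 1 and 3 but not in replicate 2.

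Among the detected genes, expected counts were not whole, at a tolerance of 0.005, for Trim30a, Trim30d, Trim12a, Trim34a, Trim12c and Trim5 of this cluster and for Trim14 elsewhere, which shows that part of their reads was shared out between genes. The same held for 6 genes that were not detected, among them Trim34b with 8.83, 19.0 and 13.5 expected counts, so both sides of the contrast between Trim34a and Trim34b depend on how reads were shared out. Trim30c and Trim30b had whole counts in every library. The share of all detected genes with whole counts was not computed.

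**Figure D2:**
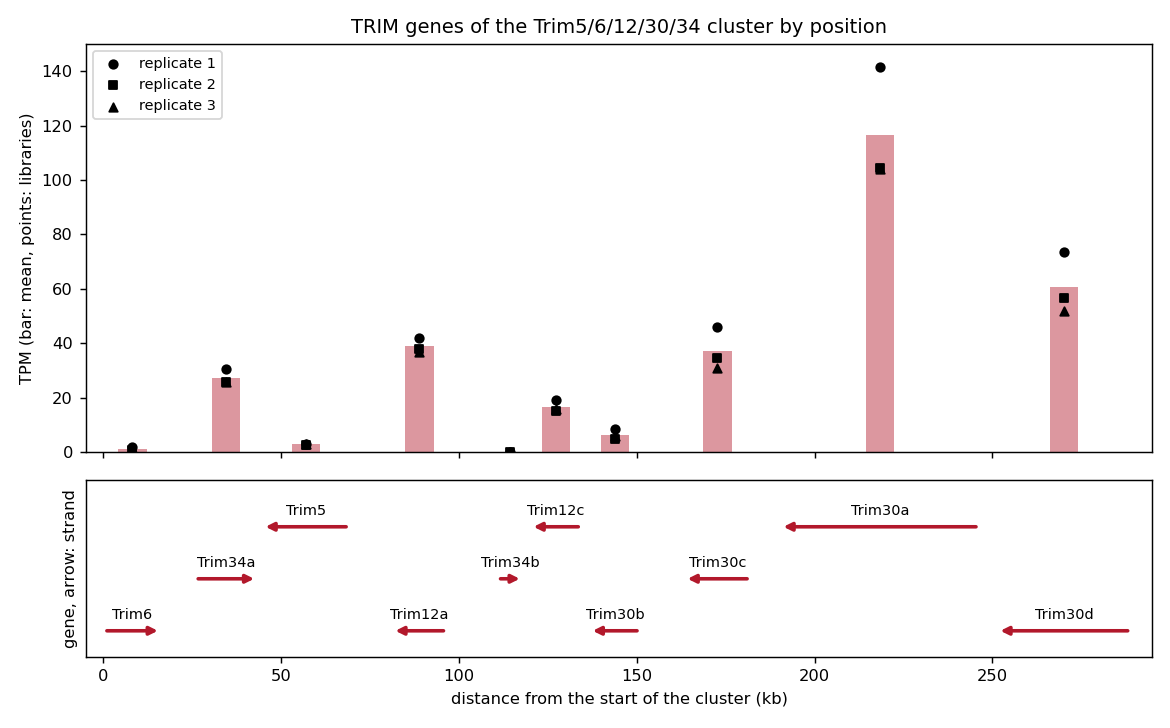
The upper panel gives the TPM of the 10 TRIM genes of the cluster at their midpoints, with bars for the mean and points for replicate 1 (circle), replicate 2 (square) and replicate 3 (triangle); the lower panel draws each gene as an arrow on its strand, against the distance in kb from the start of the cluster. Trim30a and Trim30d at the right end have the tallest bars, and Trim34b and Trim6 lie close to 0.

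Promoter windows from RefSeq (build GRCm38.p6, which is mm10), running from 250 bases before to 50 bases after each annotated start, were found for 53 of the 68 genes. They were searched on both strands for GAAA followed after any 2 bases by GAAA, the core of the interferon-stimulated response element (ISRE), to which proteins of the Irf family are known to bind. The letters occurred near 9 of the 53 genes and in 6 of the 10 cluster genes, while 3.44% of all 32851 windows and 3.99% of the 27025 genes with a window held them. The windows of the cluster genes are shown because closely related genes carried the match in the same surrounding letters. Capitals mark the match, which lies on the opposite strand of each gene and so reads TTTC, 2 bases, TTTC, with up to 10 bases on each side, written 5′ to 3′ on the strand of the gene.
Trim30a: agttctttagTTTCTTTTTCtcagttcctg
Trim30d: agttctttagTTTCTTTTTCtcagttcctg
Trim12a: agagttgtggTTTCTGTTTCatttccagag
Trim5: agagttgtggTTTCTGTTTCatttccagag
Trim12c: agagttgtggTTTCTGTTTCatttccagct
Trim34a: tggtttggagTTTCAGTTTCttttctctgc

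The Trim30a window lies at chr7:104465210-104465239 and that of Trim30d at chr7:104507871-104507900, both on the minus strand, and the 30 letters were the same. In the same way Trim12a (chr7:104315466-104315495, minus strand) and Trim5 (chr7:104288136-104288165, minus strand) had the same 30 letters. Trim12a and Trim12c (chr7:104353359-104353388, minus strand) shared 28 of 30. The Trim34a match was at chr7:104244457-104244486 on the plus strand. Trim5 was at 2.78 TPM and Trim12a at 38.8 TPM in the mean, so the same letters stood beside levels that did not overlap in any library. The match was not placed alike, at 49 bases before the annotated start in Trim5 and 10 bases after it in Trim12a. A second annotated start of Trim30a also held a match.

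Outside the cluster the letters were found near Trim21, Trim26 and Trim2. The Trim21 match lies on the strand of the gene (chr7:102565450-102565479, minus strand). The matches of Trim26 and Trim2 lie on the opposite one (chr17:36836976-36837005, plus strand, and chr3:84212791-84212820, minus strand). Trim21 and Trim26 each held a second match that overlaps the one in capitals and runs on into the lower-case letters after it.
Trim21: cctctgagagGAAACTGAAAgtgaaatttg
Trim26: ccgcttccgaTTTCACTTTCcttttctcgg
Trim2: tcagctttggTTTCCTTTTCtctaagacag

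Of the 9 genes with the letters 8 were detected, all but Trim2, and of the 44 other genes with a window 15 were detected. Over the 53 genes with a window 23 were detected, beside 41.4% of all protein-coding genes. How many of all genes with the letters were detected was not counted. The cluster gave 6 of the 9, some with the same letters around the match, so the 9 are not independent. The median of the mean TPM was 22.9 with and 0.285 without the letters. Trim30c and Trim25, among the 6 highest genes, held no match in their windows. The letters TTC and GAA separated by 3 bases, the core of a STAT site, read the same on both strands and occurred near 6 genes, of which Trim30c was the 1 detected, and in 8.3% of all windows and 9.55% of all genes with one. GGGA, any base and TTTCC, a kappaB site, was found on neither strand near any of the 53 genes and in 0.411% of all windows and 0.466% of all genes with one. A match describes letters and does not show that a factor binds, and no test was made of these counts. Trim3, Trim8, Trim11, Trim14, Trim16, Trim17, Trim29, Trim33, Trim35, Trim36, Trim43b, Trim43c, Trim50, Trim55 and Trim65 had no entry in the table of windows.

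**Figure D3:**
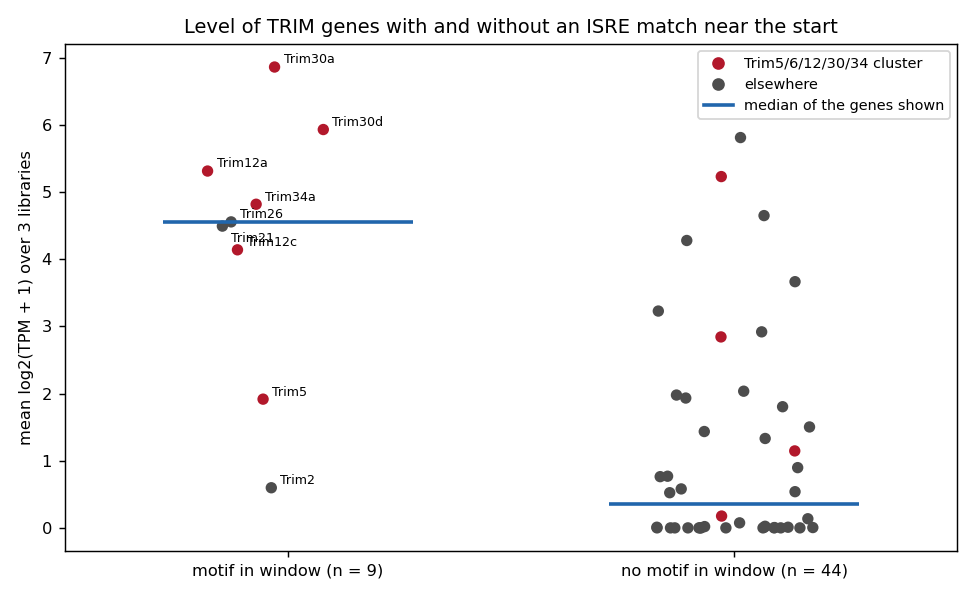
Each point is 1 of the 53 TRIM genes with a promoter window, at its mean log2(TPM + 1) over 3 libraries, split by whether the window holds the ISRE letters on either strand; red marks the Trim5/6/12/30/34 cluster, the blue line the median, and the horizontal scatter has no meaning. Of the 9 genes at the left only Trim2 lies below detection, while the 44 at the right spread from 0 to the level of Trim25.

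The PRY-SPRY class, in which the C-terminal domain binds the target and to which most cluster genes belong, had 16 of 35 genes detected, beside 41.4% of all protein-coding genes, so that its share was near the background. Of the 16, 11 were above the median gene and 5 below, beside 45.5% of all detected genes in each direction. Trim25 led the genes elsewhere in the genome (chr11:88999376-89020293, plus strand) at 64.9, 53.7 and 48.2 TPM. It is the ligase known to ubiquitinate RIG-I, the RNA sensor encoded by Ddx58. Its range overlapped that of Trim30d, although Trim30d was higher within each of the 3 libraries, by 0.12 ± 0.0524 log2 units. Trim14, a scaffold for the signalling protein Mavs, was at 52.2, 45.9 and 46.3 TPM and overlapped Trim25.

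Further regulators of sensing pathways formed a middle group. Trim35, known to act on Irf7, was at 27.8, 25.7 and 23.3 TPM. Trim26, known to act on Irf3, was at 28.1, 17.4 and 23.4 TPM, with the second largest log2 SD of the detected genes, 0.33. Trim21, the cytosolic antibody receptor, was at 26.7 TPM in replicate 1 and at 19.1 and 19.5 TPM in the others. The ranges of these 3 genes overlapped each other. Trim41, which has been linked to restriction of viral nucleoproteins, was at 17.4, 16.1 and 22.3 TPM and was highest in replicate 3.

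The lower PRY-SPRY genes lay around and under the median gene. Trim27, which regulates Nemo and Tbk1, was at 12.2, 10.7 and 12.2 TPM and 0.41 ± 0.0707 (SE) log2 units above the median, with an adjusted p of 0.000723 in limma. In the read-based transcript table, where 7748 genes passed the 1 TPM filter, its difference was -0.01 with an adjusted p of 0.854. After rescaling of both tables, the gene table gave Trim27 1.04 times its read-based level. The genes that passed the filter and set the median differed between the tables, as did the scale of TPM. Which of these moved the call was not tested. Trim11, a ligase linked to protein quality control, had a mean of 5.19 TPM. Trim65, which ubiquitinates the RNA sensor Mda5 (Ifih1), had a mean of 3.64 TPM with the smallest log2 SD of the 31 detected genes, 0.0207. Trim39 and Trim47 had means of 1.71 and 1.52 TPM. Trim65 and Trim47 overlap on the same strand over 5365 bases, so reads there could be counted for either. Both had whole expected counts in every library, so the gene table shows no reads shared out between them.

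Among the 22 genes listed for innate signalling 17 were detected, beside 41.4% of all protein-coding genes. Of these, 10 were above the median gene and 6 below, with Trim44 called neither way, beside 45.5% of all detected genes in each direction. The 5 not detected were Trim31, Trim38, Trim40, Trim59 and Trim68. Trim31 and Trim40 had 0 counts, and Trim38, known to limit Toll-like receptor signalling, had 2 counts over 3 libraries. Among the 14 genes listed as linked to interferon 13 were detected, 10 above and 3 below the median, and the exception was Trim34b. The shares over all genes are those just given. Both lists were drawn up with earlier results of these data known, so these counts are not evidence for the lists.

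The PHD-bromodomain class acts in the nucleus, where its members recruit cofactors and some of them read histone marks. Trim28, known as Kap1, is the corepressor of KRAB zinc finger proteins and silences retroelements, and it was the highest of the class (chr7:12999114-13031035, plus strand). It was at 24, 22.7 and 25.7 TPM. Trim33, a ligase for Smad4, was at 6.42, 5.32 and 5.06 TPM, and Trim24, a cofactor of nuclear receptors, at 3.13, 2.54 and 3.18 TPM. None of the 3 ranges overlapped, with Trim28 above Trim33 by 1.93 ± 0.197 log2 units and Trim33 above Trim24 by 0.74 ± 0.176. The fourth member, Trim66, was at 0.02 TPM in replicate 1 and 0.01 TPM in replicates 2 and 3, from 18 counts. In limma Trim28 was above the median gene and Trim33 and Trim24 were below it. The 9 listed corepressor partners of Trim28 were all detected, beside 41.4% of all protein-coding genes. Of the 9, 6 were above and 2 below the median, beside 45.5% of all detected genes in each direction. The 3 highest were Chd4 at 31.2 TPM, Hdac1 at 18.4 TPM and Cbx3 at 15.9 TPM.

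In the NHL class, which includes RNA-binding and vesicle-linked ligases, Trim3 and Trim32 were detected. Trim3, known from endosomal transport, was at 6.10, 4.22 and 5.73 TPM, and Trim32, a ligase mutated in a muscular dystrophy, had a mean of 1.84 TPM without overlap. Both were below the median gene, beside 45.5% of all detected genes. Trim2 had a mean of 0.513 TPM, and Trim71, a gene of early embryos and stem cells, had 0 counts in the gene table.

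Of the 7 genes without a further C-terminal domain 3 were detected, beside 41.4% of all protein-coding genes. Trim8, a ligase of the NF-kB pathway that also acts on Socs1, was at 25.8, 21.3 and 24.6 TPM. Trim44 was at 9.10, 7.46 and 8.64 TPM, at -0.03 ± 0.0685 (SE) log2 units from the median gene with an adjusted p of 0.671 in limma. Its sign and call changed with the processing. In limma it was at -0.40 with an adjusted p of 0.000698 in the read-based table, where 7748 genes passed the 1 TPM filter. After rescaling over nuclear protein-coding genes it was at 0.26 with an adjusted p of 0.0138. Rescaling multiplies a library's TPM by 1 factor, after which 10320 genes in place of 9106 passed the filter. The median gene in each setting is thus that of another set of genes. Trim56, linked to the DNA sensor adaptor Sting, was at 8.0, 5.30 and 6.63 TPM and at -0.34 ± 0.0793 log2 units from the median gene, with an adjusted p of 0.00368 in limma. After the same rescaling it was at -0.08 with an adjusted p of 0.409. Trim30b of the cluster lost its call in the same way, from -0.42 with an adjusted p of 0.00372 to -0.17 with an adjusted p of 0.191.

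The ARF, MATH, transmembrane and COS box classes had 1 detected gene each, all low, and Trim45, which ends in a filamin domain, had a mean of 0.453 TPM. Trim23, which ends in an ARF GTPase domain, had a mean of 3.11 TPM and Trim37, the MATH domain ligase that limits centriole number, 2.82 TPM. Trim13, anchored in the endoplasmic reticulum, was at 3.26, 2.40 and 1.94 TPM, and its membrane-anchored relative Trim59 had a mean of 0.71 TPM. In the COS box class, whose proteins bind microtubules, Trim36 was the 1 detected gene of 8, at 1.84, 1.15 and 1.03 TPM. Over all protein-coding genes 41.4% were detected. Trim23, Trim37, Trim13 and Trim36 were all below the median gene in limma, beside 45.5% of all detected genes.

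TRIM genes known from other tissues were at or near 0. None of the 4 muscle genes was detected, and Trim54 and Trim63, the latter also known as Murf1, had 0 counts in the gene table. None of the 14 genes listed for nerve, testis, embryo, epithelium or red cell development was detected either, and the highest of them was Trim46 at 0.44 TPM. Over all protein-coding genes 41.4% were detected. The first 4 of the genes with 0 counts in alphabetical order were Trim10, Trim31, Trim40 and Trim42. A further 13 genes had between 1 and 20 counts over the 3 libraries together. Of the 11 genes with 0 counts, 3 (Trim52, Trim63 and Trim71) had estimated counts in the read-based table, so for them the limit given above holds for the gene table alone.

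Few steps in the order of levels were wider than the spread between libraries. Of the 30 pairs of neighbours among the 31 detected genes, 7 had ranges that did not overlap. These steps lay below Trim30a, Trim14, Trim30c, Trim12c, Trim27, Trim11 and Trim65. From Trim34a to Trim12c, 8 successive genes between 27.3 and 16.7 TPM had ranges that overlapped those of their neighbours. The same held for the genes from Trim44 to Trim11 and from Trim23 to Trim36. Set against each other within a library, 5 further pairs had the same order in 3 of 3 libraries although their ranges overlapped. They were Trim30d over Trim25, Trim25 over Trim14, Trim34a over Trim35, Trim44 over Trim56 by 0.31 ± 0.132 log2 units and Trim13 over Trim32 by 0.30 ± 0.190. An exact test on 3 paired values cannot give a two-sided p under 0.25, so none was made.

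Levels of the TRIM genes were about as reproducible as those of other genes. The median SD of log2(TPM + 1) over 3 libraries was 0.14 for the 31 detected TRIM genes and 0.16 for all detected protein-coding genes. The median biological coefficient of variation from edgeR was 0.118 and 0.121, respectively. The largest SDs were 0.36 for Trim30b, 0.33 for Trim26, 0.29 for Trim30c, 0.27 for Trim13 and 0.26 for Trim21, whose values are given above. In TPM, 24 of the 31 genes and all 8 detected cluster genes were highest in replicate 1. The median detected gene was also highest there, at 9.52 TPM against 8.0 and 8.29. The share of all detected genes highest in replicate 1 was not computed, so these counts are not read as a trait of the family.

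To take out that shift, the deviation of a library was taken as its log2(TPM + 1) minus the mean of the other 2, less the median of this difference over all detected genes. No TRIM gene deviated by more than 0.5 in any library, beside 2.22%, 3.04% and 2.76% of all detected genes in replicates 1, 2 and 3. The largest deviations were 0.47 for Trim41 in replicate 3 and -0.41 for Trim26 in replicate 2. In replicate 1 the cluster had a median deviation of 0.17 with 6 of its 8 genes positive, beside 50% of all detected genes. For the detected TRIM genes elsewhere the median was -0.03, with 9 of 23 positive. Trim30b, Trim30c, Trim30a and Trim30d were at 0.39, 0.29, 0.24 and 0.23. Trim12c was at 0.10, Trim34a at 0.03, Trim12a at -0.04 and Trim5 at -0.16. Outside the cluster the largest were 0.26 for Trim26, 0.25 for Trim21, 0.24 for Trim36 and 0.23 for Trim13, and the lowest was -0.31 for Trim41. Single deviations of this size were thus not confined to the cluster, although most genes elsewhere were not positive. In replicates 2 and 3 the cluster medians were -0.01 and -0.05.

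A set of 20 interferon-induced genes, among them Ifit1, Isg15, Rsad2 and Mx1, chosen after the data were seen, moved in the same library. Their median deviation was 0.37 in replicate 1, with 20 of 20 positive beside 50% of all detected genes. It was -0.05 in replicate 2, with 4 of 20 positive, and -0.19 in replicate 3, with 1 of 20 positive. Since the values were known when the set was chosen, these counts are not evidence about the TRIM genes. In replicate 2 the lowest deviations were those of Trim26, Trim30b at -0.35, Trim3 at -0.29 and Trim56 at -0.28, and Malat1 was lowest in the same library. The part of these differences between libraries in the TRIM values was not tested.

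**Figure D4:**
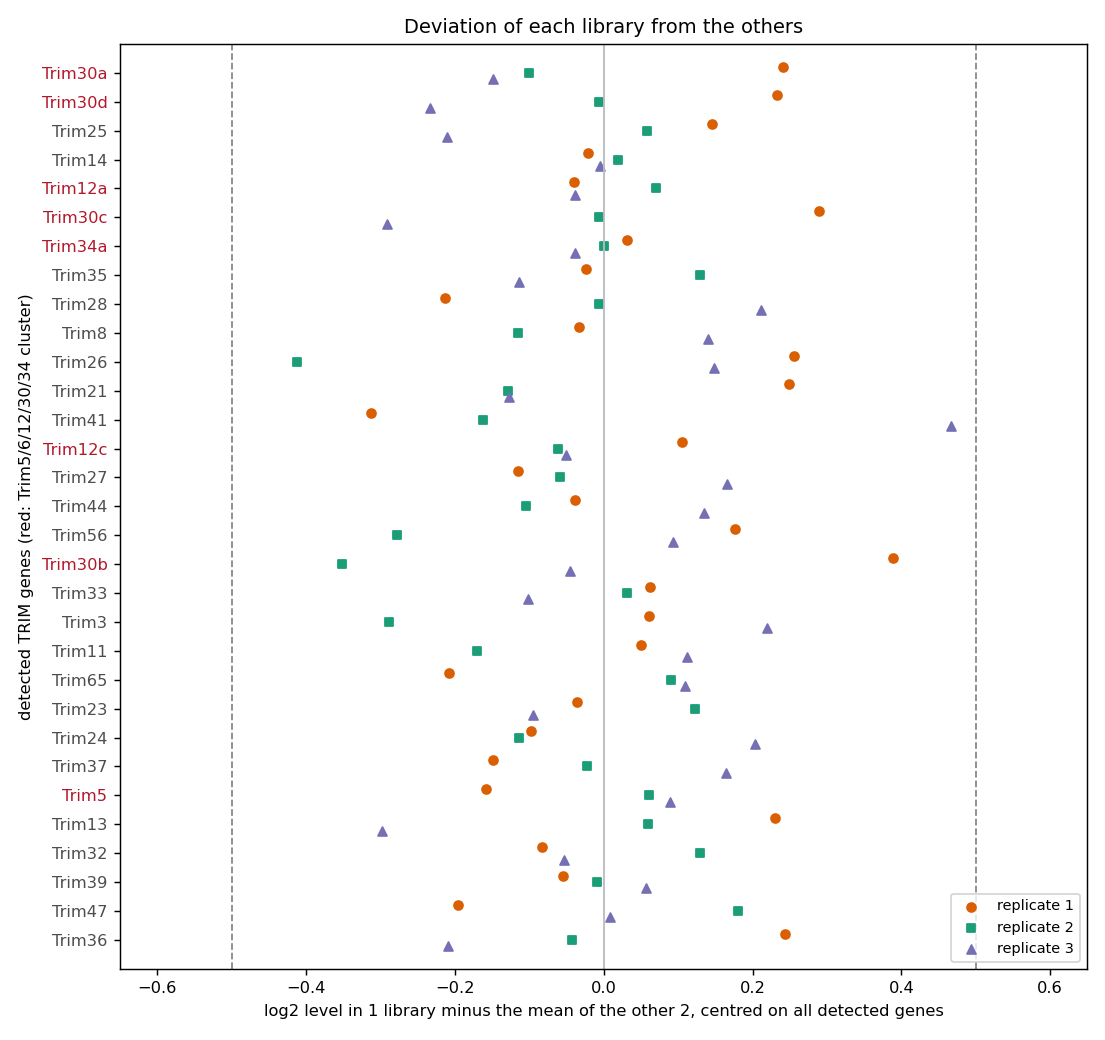
Each row is a detected TRIM gene, in order of mean level, with the deviation of replicate 1 (orange circle), replicate 2 (green square) and replicate 3 (violet triangle) from the other libraries in log2 units; names in red belong to the Trim5/6/12/30/34 cluster and dashed lines mark 0.5 in either direction. No point passes the dashed lines, and the orange points of Trim30a, Trim30d, Trim30c and Trim30b lie to the right of 0.

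Transcripts of most TRIM genes were assigned to coding isoforms. In the alignment-based transcript table the median share of a gene's TPM that fell on transcripts annotated as protein coding was 99.3% for the 31 TRIM genes and 95.5% for all detected genes. The share was under 90% for 10 of the 31, beside 34.6% of all detected genes, so this count was near the background. It was under 50% for Trim28 and Trim30b, beside 5.5% of all detected genes, so this count too was near the background, and both genes are described because of their values.

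Trim28 had 41.5%, 35.2% and 35.5% of its transcript TPM on its coding isoform. A retained-intron transcript, Trim28-203, held 44.4% ± 4.58, and all its retained-intron transcripts together 47.5% ± 2.30. In the read-based table Trim28-203 held 26.7% ± 10.4 and all retained-intron transcripts 30.8% ± 6.55, and the coding transcript Trim28-201 was the highest. There the coding share was 57.8%, 39.0% and 43.5%, so it was above 50% in replicate 1. Zbtb45 overlaps Trim28 by 6137 bases on the other strand at 3.25 TPM, and whether the counting used strand is not given in the sources used here. Trim30b had 30.1%, 18.2% and 32.2% on coding isoforms and 73.2% ± 7.55 on retained-intron transcripts, against 43.4%, 24.5% and 47.2% coding in the read-based table, under 50% in every library of both tables.

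Trim12a was split between 2 transcripts. The coding Trim12a-203 held 42.5% ± 2.43 and Trim12a-206, annotated as a processed transcript without an open reading frame, 44.5% ± 3.01. The read-based table gave them 45.9% ± 5.05 and 36.0% ± 4.40. For Trim26 and Trim47 the tables differed more, with coding shares of 62.8% and 81.9% for Trim26 and 68.3% and 91.1% for Trim47. Trim30d and Trim34a each used 2 coding transcripts, with 56.2% ± 1.69 on Trim30d-202 and 51.2% ± 0.239 on Trim34a-203.

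**Figure D5:**
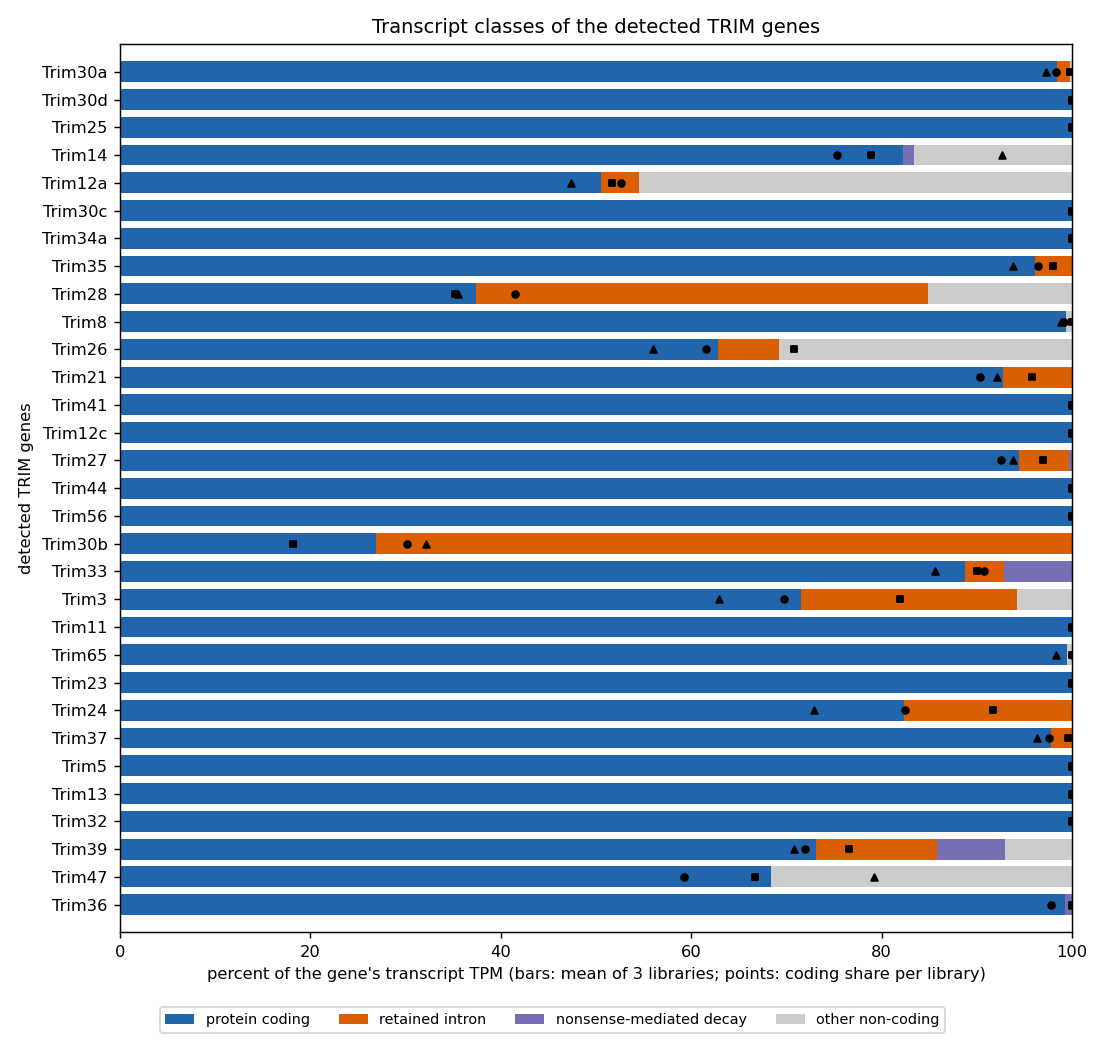
Bars give the mean percent of each detected TRIM gene's transcript TPM on coding (blue), retained-intron (orange), nonsense-mediated decay (violet) and other non-coding (grey) transcripts in the alignment-based table, with black points for the coding share in replicate 1 (circle), replicate 2 (square) and replicate 3 (triangle). Trim30b and Trim28 have the longest orange bars, and Trim12a the longest grey one.

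The 2 ways of counting gave the TRIM genes similar levels. After both tables were rescaled over nuclear protein-coding genes, none of the 31 differed by more than 1.5-fold, beside 2.63% of all detected genes. The ratio of the gene table to the read-based table ran from 0.793 for Trim30b to 1.25 for Trim28. Of the 31 genes 20 overlap another annotated gene, and 9 overlap one at 1 TPM or more, so that their reads may be hard to tell apart. Expected counts were whole in every library for 24 of the 31. How many of all detected genes overlap another gene or have whole counts was not computed. These counts are thus not read as a trait of the family. Besides the pairs named above, Trim14 overlaps Nans, Trim13 overlaps Dleu2, Trim41 overlaps Rack1 by 31 bases, and Trim30d contains the pseudogene Gm16464 on its own strand.

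Partners of the family were mostly detected. Of 15 listed ubiquitin-activating and E2 enzymes, which hand ubiquitin to RING domains, 14 were detected, 12 above the median gene and 1 below. Over all protein-coding genes 41.4% were detected, and of the detected genes 45.5% were above and 45.5% below, which holds as the background for each of the following lists too. The 3 highest were Ube2d3 at 133 TPM, Ube2l6 at 98.5 TPM and Ube2l3 at 79.1 TPM. All 13 matched sensing partners were detected, 11 above and 2 below, led by Irf7 at 728 TPM, Ddx58 at 108.0 TPM and Ikbke at 84.5 TPM. All 6 genes of the PML nuclear body were above the median, among them Sp100 at 176 TPM and Sumo2 at 66.2 TPM. Among 9 genes with the TRIM domain order or a close relation to it but another name, 3 were detected. These were Pml at 35.1 ± 7.92 TPM, Mid1 at 19.3 ± 5.41 TPM and Mefv, which encodes pyrin, at 7.01 ± 3.52 TPM. Pml and Mid1 were above the median gene, and Mefv at -0.35 had an adjusted p of 0.0725 in limma.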

How the data were processed

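The authors deposited 1 gene table and 2 transcript tables per library. Per the file headers the gene table gives expected counts (estimates that can be fractional), TPM and FPKM, in the layout of RSEM. A deposited alignment-based transcript table and a deposited read-based one (layout of kallisto) hold estimated counts and TPM. Accompanying text names mm10 and annotation M21; no aligner or quantifier is named in the sources used here. Rows that name no gene (0.356%, 0.125% and 0.104% of counts) were left out.

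Detection meant at least 1 TPM in every library, and levels used log2(TPM + 1), which understates ratios of low genes. Levels were tested against each library's median with an intercept-only limma 3.58.1 fit over 9106 genes (Benjamini-Hochberg). edgeR 4.0.16 gave the coefficient of variation on expected counts rounded to whole numbers. Fractions of transcript TPM and motif matches are descriptions. On simulated counts, with 50 genes per size in a fit of 9106 genes, the limma test called 6% of genes without a difference, 70% with a log2 difference of 0.5 and 100% of those with 1 or 2. The median estimates for 0.5, 1 and 2 were lower, at 0.384, 0.846 and 1.85. Every simulated gene had a coefficient of variation of 0.189, against a median of 0.121 for the detected genes. The rates thus hold for that setting and not for the real fit. R 4.3.3 and Python 3.11.15 were used, and DESeq2 1.42.0 for an alternative.

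The TRIM genes, the gene lists, the tests and the alternatives were chosen with earlier results of these data known, and the pairs set side by side after the values were seen. Values per library were given for the 20 detected genes of highest mean TPM, the detected cluster genes, the PHD-bromodomain class and the 5 genes of largest SD, and for Trim6, Trim34b and Trim36 after their values were seen. From each list of partners the 3 highest genes were named, except for some list members that are not reported here, and of the genes with 0 counts the first 4. Listed symbols Trim4 and Mb21d1 matched no gene of the annotation. Domain classes and functions are background knowledge. All values are mean ± SD of 3 libraries unless an SE is named.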

Additional observations from a re-analysis of the deposited data

How the results depend on the processing

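The counts of detected TRIM genes ranged from 26 to 40 over thresholds of 0.5 and 2 TPM, 1 library in place of 3, FPKM, the read-based table, TPM rescaled over nuclear protein-coding genes and each library left out, against 31. The median level of the 68 genes, 0.77, moved with the scale, to 0.40 in the read-based table, 1.75 after rescaling, 1.09 with FPKM, 2.51 with a pseudocount of 5 and -0.33 with a pseudocount of 0.1. Leaving out each library gave 0.77 to 0.79. The 15 genes above and 15 below the median gene became 21 and 30 without a filter on low values, where the median is that of all genes, lower by construction, and stayed within 14 to 16 and 11 to 22 otherwise. In that unfiltered setting Trim44 (1.15), Trim56 (0.84), Trim30b (0.77), Trim33 (0.64), Trim3 (0.58), Trim11 (0.55) and Trim65 (0.14) turned positive. Trim23, Trim24, Trim37 and Trim5 kept a negative sign there but lost the call. Trim27 reversed to -0.013 in the read-based table, and Trim44 to 0.26 after rescaling and 0.10 with FPKM. The fixed 1 TPM filter passed 7748 genes in the read-based table and 10320 after rescaling, and 9659 passed with FPKM, against 9106. The median there is thus that of another set of genes. Leaving out each library moved Trim44 between -0.057 and 0.043 and ended no call of the other 30 genes. Beyond a deviation of 0.5 there was 1 gene in replicate 2, Trim6, after rescaling (-0.78) and with FPKM (-0.63), which admit it as detected, and 1 in replicate 3, Trim41 at 0.50, in the read-based table. The median coding share was 95.3% in the read-based table, and the cluster held 46.4% of expected counts; this last alternative was chosen after seeing the data. The cause of these shifts was not tested. Over all settings, 318 of 336 positions of a gene against the median kept sign and call, and 93 of 186 mean levels of a gene stayed within 1 SD of the main value.

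No paired analysis was possible because there is 1 group. With 3 libraries, no control and 1 time point, levels cannot be read as responses. Reads shared between the cluster's paralogs limit their separate levels, and genes at a few counts have no usable spread.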

Other observations

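Some genes at the edge of detection differed between the tables. Trim52 had 0 expected counts in the gene table in all 3 libraries, but 31.8, 15.0 and 60.1 estimated counts in the read-based table, equal to 0.475, 0.214 and 0.827 TPM. TPM ran lower in the read-based table, at 56.6 for Trim30a in replicate 1 against 142 in the gene table. After rescaling over nuclear protein-coding genes, the read-based mean was 4.42 for Trim52, beside 5.01 for Trim36, which was detected in the gene table. Trim63 and Trim71, also at 0 in the gene table, had up to 21.2 and up to 14 estimated counts in a library of the read-based table. Trim17 had a mean of 0.137 TPM and lies on the same strand as Hist3h2a, which overlaps it by 2146 bases at 16.2 TPM. Trim38, which is listed for innate signalling, had 1, 1 and 4 estimated counts in the read-based table, so both tables put it near 0.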
